A study of Homo sapiens
Mus musculus with 16 samples.

Results

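The comparison described here sets tumour-cell transcripts of xenografts given both nintedanib and alpelisib against those given vehicle. Its members were chosen by treatment label from the table of reads mapped to the human genome, which gave 8 of the 16 libraries of that table, 4 of combination tumours and 4 of vehicle tumours. Genes with a normalized value of at least 1 in at least 4 of the 16 libraries were tested, which kept 17663 of 23368 listed genes and left out 5705. ScaBER cells, a human cell line from a squamous carcinoma of the bladder, were grown as tumours in Hsd:Athymic Nude-Foxn1nu mice, which lack a thymus and so lack most mature T cells, while other host immune cells remain. All tumours were taken after 14 days of treatment. Combination tumours received alpelisib (BYL719) at 25 mg/kg with nintedanib at 40 mg/kg, nintedanib tumours 40 mg/kg of that drug alone, alpelisib tumours 25 mg/kg of that drug alone, and vehicle tumours 0.5% methylcellulose with 0.1% Tween80. Each group had 4 libraries, and all of them came from 1 cell line. Labels number the replicates but do not tie them to animals; the p-values below therefore reflect variation among these samples, some of which may be technical. The stated aim was to find what lies behind the synergy of the drugs in vivo.

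Alpelisib blocks the alpha catalytic subunit of PI3K, the lipid kinase that passes signals from growth factor receptors to AKT and mTOR. AKT keeps FOXO transcription factors out of the nucleus, and mTOR drives ribosome production and protein synthesis. Nintedanib blocks the kinase activity of VEGF, FGF and PDGF receptors, which act on blood vessels and stroma and, for the FGF receptors, on the carcinoma cells themselves through RAS and ERK. When a tumour cell lacks oxygen, hypoxia-inducible factors raise genes of glycolysis, vessel growth and matrix remodelling. Squamous cells that stop dividing move through a program that ends in cornification, with keratins, small proline-rich proteins and late cornified envelope proteins laid down in order.

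Depth was 8303617 to 18568119 reads per library in the human table. The share of reads from the mouse was 27.4% ± 5.03 (SD, n = 4) in combination tumours and 22.2% ± 2.10 (SD, n = 4) in vehicle tumours. All 7 squamous markers sought (KRT5, KRT14, KRT6A, TP63, SFN, DSG3 and PKP1) were present, with summed values of 196498 to 302908 in combination tumours and 224243 to 324169 in vehicle tumours. The 7 urothelial markers summed to only 223 to 370.1 in combination tumours and 211 to 296 in vehicle tumours, with 2 of them below 10 in every library. Combination 1 was rich in host skeletal muscle transcripts: 7 mouse muscle markers summed to 83825 there and to 54.2 to 5205 in the other combination libraries, against 86.0 to 22102 in vehicle tumours. Muscle markers of the human table, which can take in mouse reads of conserved sequence, summed to 1575 in combination 1 and 129 to 197 in the other combination libraries, against 98.4 to 229 in vehicle tumours. In bulk tumour RNA, fewer cells of a type and less RNA per cell cannot be told apart.

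No tumour-cell gene passed an adjusted p of 0.05 between combination and vehicle tumours in limma's moderated test on log2(value + 1), fitted to all 16 libraries and adjusted by Benjamini-Hochberg over the 17663 genes. The share called was 0%, and the smallest adjusted p was 0.205, that of WFDC12. At an unadjusted p under 0.05 there were 1441 genes (8.16%), of which 790 were higher with both drugs (4.47%) and 651 lower (3.69%). The median log2 difference of all genes was 0.031, with 53.5% above 0 and 46.5% below, and the 5th and 95th percentiles were -0.61 and 0.99. In 506 genes (2.86%) the 4 combination libraries did not overlap the 4 vehicle libraries, higher in 316 (1.79%) and lower in 190 (1.08%). These shares are the background for the list counts below, each in its own direction, unless another share is named. The lists were chosen with earlier results of these data known, so a count above its share is no independent support. EdgeR's quasi-likelihood test and limma-voom on the recovered reads also gave 0 genes. DESeq2 on the same reads called 13 genes (0.0736%), 10 higher (0.0566%) and 3 lower (0.017%). It gave no adjusted p for 5146 of the 17663 genes, which therefore could not be called, and the shares count all 17663. The split of unadjusted calls depended on scaling: 631 were higher and 691 lower after quantile normalization, and 505 higher and 1109 lower with libraries scaled to the sum of human and mouse reads, which put higher calls at 47.7% and 31.3% of the calls, against 54.8% as deposited.

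**Figure D1:**
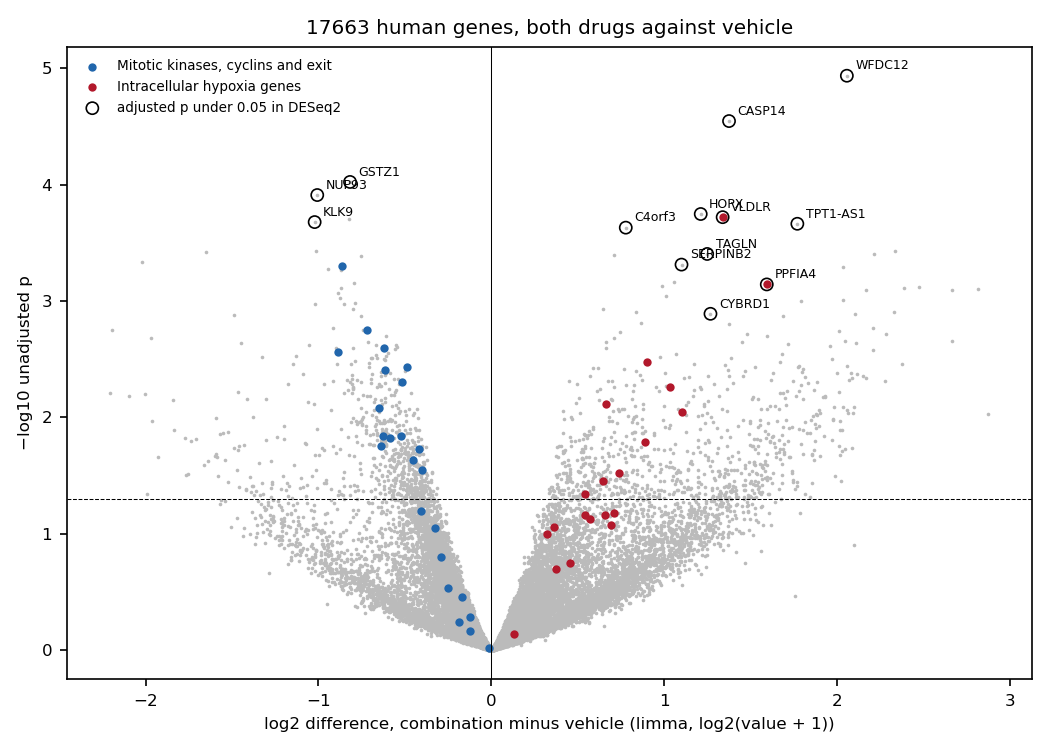
Log2 difference of each of the 17663 human genes tested (x axis, combination minus vehicle, limma on log2(value + 1)) against −log10 of its unadjusted p (y axis). The dashed line marks the unadjusted threshold, blue points are 24 mitotic regulators, red points 20 intracellular hypoxia genes and open circles the 13 genes called by DESeq2. All blue points lie at or left of 0 and all red points right of it, while no gene passes the adjusted threshold in limma.

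The strongest single difference was in WFDC12, a small secreted whey acidic protein-type inhibitor of proteases. Its normalized values, given here and below in the order of replicates 1 to 4, were 55.5, 175, 127 and 74.8 in combination tumours, against 16.2, 27.9, 22.9 and 26.0 in vehicle tumours. Every combination library lay above every vehicle library (log2 2.06, SE 0.37, adjusted p = 0.205 in limma; adjusted p = 9.89e-05 in DESeq2). WFDC12 stood as high with nintedanib alone (67.8, 189, 96.4 and 99.3) and with alpelisib alone (136, 145, 75.2 and 93.2), and the combination differed from nintedanib by log2 -0.10 (unadjusted p = 0.788) and from alpelisib by -0.14 (unadjusted p = 0.7).

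CASP14, the caspase of terminally differentiating keratinocytes that takes part in filaggrin processing, had values of 188, 309.6, 205 and 255 in combination tumours, against 81.0, 69.3, 141 and 82.5 in vehicle tumours. It rose by log2 1.38 (SE 0.26, DESeq2 adjusted p = 0.00313, limma adjusted p = 0.252), with no overlap between the groups. WFDC12 and CASP14 were also called in each of 8 repeats of DESeq2 that left out 1 combination or vehicle library, a set of repeats chosen after seeing the data. The other 11 genes were called in 2 to 4 of the 8 repeats, and the number of calls was 207, 89, 3 and 2 without combinations 1, 2, 3 and 4 in turn and 5, 11, 2 and 22 without vehicles 1, 2, 3 and 4.

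Further DESeq2 calls belong to epithelial differentiation, cell shape or protease control. HOPX, a homeodomain-only protein that does not bind DNA itself, had values of 397, 365, 625 and 329 in combination tumours, against 114, 321, 142 and 196 in vehicle tumours (limma log2 1.21, SE 0.27, adjusted p = 0.396; DESeq2 adjusted p = 0.0491). SERPINB2 encodes plasminogen activator inhibitor 2, and its values were 116, 134, 127 and 138 in combination tumours, against 47.6, 77.1, 63.7 and 53.1 in vehicle tumours (limma log2 1.10, SE 0.27, adjusted p = 0.396; DESeq2 adjusted p = 0.0432). The actin-binding protein gene TAGLN stood at 141, 121, 167 and 152 in combination tumours, against 77.2, 41.3, 67.1 and 61.0 in vehicle tumours (limma log2 1.25, SE 0.30, adjusted p = 0.396; DESeq2 adjusted p = 0.0321). In these genes all 4 combination libraries were above all 4 vehicle libraries. KLK9, a kallikrein-related serine protease gene, was among the 3 lower genes, at 272, 213, 154 and 135 in combination tumours, against 494, 282, 346 and 431 in vehicle tumours (limma log2 -1.02, SE 0.23, adjusted p = 0.396; DESeq2 adjusted p = 0.0449).

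Of the remaining higher calls, VLDLR encodes a lipoprotein receptor and PPFIA4 a liprin, and both are known hypoxia-inducible genes. VLDLR had values of 101, 115, 156 and 161 in combination tumours, against 47.6, 33.5, 62.0 and 67.8 in vehicle tumours (limma log2 1.34, SE 0.30, adjusted p = 0.396; DESeq2 adjusted p = 0.0187). PPFIA4 had values of 73.3, 153, 226 and 267 in combination tumours, against 60.0, 40.2, 64.5 and 49.7 in vehicle tumours (limma log2 1.59, SE 0.41, adjusted p = 0.421; DESeq2 adjusted p = 0.0201). Both were clear of vehicle in every combination library, and combination 1 was the lowest combination library in each. Over the 16 libraries VLDLR and PPFIA4 each had a correlation of 0.74 with the mouse gene of the same symbol. Those mouse genes averaged 81.5 and 44.1, and the human genes 93.4 and 92.1. Whether mouse reads contributed was not tested. CYBRD1, a ferric reductase gene, stood at 83.8, 70.8, 41.4 and 114 in combination tumours, against 22.9, 32.4, 30.6 and 33.9 in vehicle tumours (limma log2 1.27, SE 0.34, adjusted p = 0.468; DESeq2 adjusted p = 0.0491), and C4orf3 at 1472, 1360.4, 2415 and 2137 in combination tumours, against 922, 1015, 1025 and 1242 in vehicle tumours (limma log2 0.78, SE 0.18, adjusted p = 0.396; DESeq2 adjusted p = 0.0321). TPT1-AS1 had values of 55.5, 123, 175 and 135 in combination tumours, against 32.4, 55.9, 22.9 and 26.0 in vehicle tumours (limma log2 1.77, SE 0.40, adjusted p = 0.396; DESeq2 adjusted p = 0.0089). Combination 1 overlapped vehicle there, and without a stated strand for the counting its reads cannot be told apart from those of its partner TPT1.

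The other lower calls were GSTZ1, an enzyme of tyrosine breakdown, and NUP93, a scaffold protein of the nuclear pore. GSTZ1 had values of 634, 623, 469 and 395 in combination tumours, against 1171, 899, 910.1 and 738 in vehicle tumours (limma log2 -0.82, SE 0.17, adjusted p = 0.396; DESeq2 adjusted p = 0.0201). For NUP93 they were 755, 731, 590.2 and 379 in combination tumours, against 1472, 1392, 1257 and 785 in vehicle tumours (limma log2 -1.01, SE 0.22, adjusted p = 0.396; DESeq2 adjusted p = 0.0256). Neither gene overlapped between the groups, and the single-drug tumours lay between: GSTZ1 stood at log2 -0.33 with nintedanib and -0.21 with alpelisib relative to vehicle, and NUP93 at -0.66 and -0.49.

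**Figure D2:**
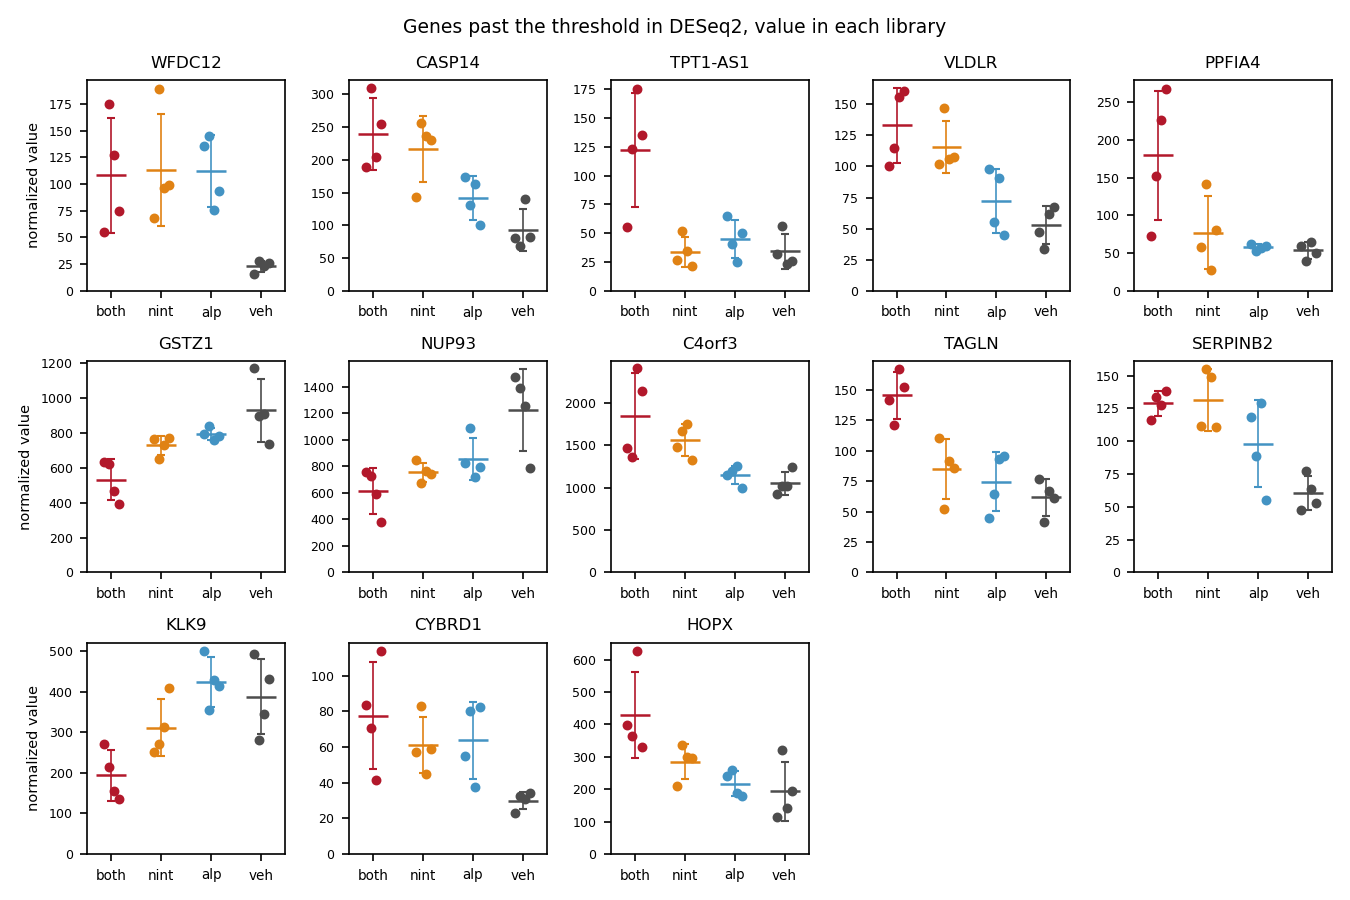
Normalized value (y axis, reads divided by the library's size factor) of the 13 genes called by DESeq2 in each library (points) of tumours given both drugs (both), nintedanib (nint), alpelisib (alp) or vehicle (veh), with the group mean and SD as bars, n = 4. WFDC12, CASP14, SERPINB2 and CYBRD1 are also high in 1 or both single-drug groups, whereas TPT1-AS1, PPFIA4 and TAGLN are highest with both drugs.

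Beyond the DESeq2 calls, the genes with the smallest limma p among those of at least median expression and separated groups had adjusted p-values of 0.396 to 0.505. Higher with both drugs were LGALS3, the sugar-binding galectin-3 (log2 0.71, SE 0.17), CNN3, the actin-binding calponin-3 (0.65, SE 0.17), and the arrestin-domain gene ARRDC4 (0.87, SE 0.24). LGALS3 had values of 2887, 2624, 3907 and 3476 in combination tumours, against 1538, 2009, 1866 and 2487 in vehicle tumours. TOB1, an antiproliferative partner of the CCR4-NOT deadenylase, stood at 0.75 (SE 0.21), ZNFX1-AS1, which overlaps ZNFX1 on the other strand, at 0.84 (SE 0.23), and C1orf21, SLC25A43 and LOC375295 at 0.67, 0.66 and 0.99. Lower with both drugs were PPP1R10, a nuclear regulator of protein phosphatase 1 (log2 -0.82, SE 0.18), the mitochondrial protein gene CHCHD10 (-1.02, SE 0.24), and the ubiquitin ligase subunit CCNF, or cyclin F (-0.75, SE 0.18). PPP1R10 had values of 708, 528, 484 and 352 in combination tumours, against 1125, 845, 904 and 728 in vehicle tumours. Its correlation with the mouse gene of the same symbol was 0.78 over the 16 libraries. The cytidine deaminase APOBEC3C stood at -0.87, TP53I11 at -0.95, FAM102A at -0.87, FOXRED2 at -0.80 and the mitochondrial creatine kinase CKMT1A, which has a near-identical copy in CKMT1B, at -0.87.

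Genes of mitosis were lower with both drugs in almost every list member. Of 24 mitotic kinases, cyclins and exit factors, 24 lay below 0, with a median of -0.47, and 15 had an unadjusted p under 0.05, against a background of 3.69% of all genes in that direction. Separated groups were seen in 6, against 1.08% of all genes in that direction. CDCA3, a trigger of mitotic entry, had values of 663, 611, 429.6 and 308 in combination tumours, against 1117, 845, 739 and 848 in vehicle tumours (limma log2 -0.86, SE 0.21, adjusted p = 0.396). CDCA8, or borealin, a subunit of the chromosomal passenger complex, had 903, 529, 525 and 517 in combination tumours, against 942, 963, 949 and 844 in vehicle tumours (limma log2 -0.62, SE 0.18, adjusted p = 0.505). Combination 1 reached the vehicle range there, while the other 3 combination libraries lay below it. The list score, the mean of members with the vehicle mean at 0, was -0.076, -0.40, -0.60 and -0.75 in combination tumours, against 0.15, 0.014, -0.028 and -0.13 in vehicle tumours. Relative to the same vehicle libraries the list median was -0.39 with nintedanib alone and -0.14 with alpelisib alone. The median of combination minus nintedanib was -0.10. Only 1 member was lower and 1 higher than with nintedanib at an unadjusted p under 0.05 in limma, where 5.24% and 4.03% of all genes were.

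Spindle, kinetochore and chromosome genes followed a different pattern across libraries. Of 22 kinesins and spindle proteins 21 lay below 0 (median -0.31), 4 of them at an unadjusted p under 0.05, and their score was 0.11, -0.92, -0.55 and 0.034 in combination tumours, against -0.46, 0.28, 0.06 and 0.12 in vehicle tumours. Combinations 2 and 3 were low and combinations 1 and 4 lay within the vehicle range, and vehicle 1 was itself low. The spindle protein gene CKAP2L stood at -0.78 (SE 0.28, adjusted p = 0.528), the microtubule-binding NUSAP1 at -0.52 (SE 0.21) and the chromokinesin KIF4A at -0.50 (SE 0.20). All 19 kinetochore and checkpoint genes were below 0 (median -0.19), yet only CENPE, the kinesin that brings chromosomes to the spindle equator, had an unadjusted p under 0.05 (log2 -0.86, SE 0.41, adjusted p = 0.61). Among 14 condensin and cohesin genes 11 were below 0 (median -0.22), and SGOL2, a protector of cohesin, and NCAPG, a condensin subunit, stood at -0.67 and -0.49. Leaving out 1 combination or vehicle library at a time gave 10 to 17 low mitotic kinases and exit genes and 1 to 11 low kinesins, while the share of all genes that were low ran between 2.33% and 5.87%. The fewest of both lists were low without combination 3. Without vehicle 2 the kinetochore median was -0.049, with 13 of 19 below 0 and 0 at an unadjusted p under 0.05, and without combination 2 the condensin and cohesin median was -0.051, likewise with 0.

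DNA synthesis genes lay below 0 as well, by smaller amounts. Of 30 replication genes 26 were below 0 (median -0.26), and 8 had an unadjusted p under 0.05. MCM2, a subunit of the replicative helicase, had values of 1885, 1511, 1136 and 800.2 in combination tumours, against 2294, 2257, 2025 and 1704 in vehicle tumours (limma log2 -0.70, SE 0.22, adjusted p = 0.505). The largest subunit of ribonucleotide reductase, RRM1, stood at -0.52 (SE 0.23) and the helicase loader MCM10 at -0.51 (SE 0.24). Combination 1 was again near the vehicle values of MCM2, and without combination 1 there were 12 low replication genes, in a repeat where 5.87% of all genes were low. Without combination 3 there were 2, where 2.33% of all genes were low. Relative to vehicle the replication median was -0.39 with nintedanib alone, further below 0 than with both drugs, and -0.098 with alpelisib alone. At an unadjusted p under 0.05 in limma, 4 members were higher and 1 lower with both drugs than with nintedanib, where 4.03% and 5.24% of all genes were. Of 15 homologous recombination genes 12 were below 0 (median -0.24), with FANCI at -0.45. That median was -0.022 without combination 2 and -0.088 without vehicle 2, where 8 of 15 were below 0 and 0 had an unadjusted p under 0.05. With nintedanib alone the recombination median was -0.32 relative to vehicle, and with alpelisib alone -0.13.

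Regulators of the G1 phase differed in direction. CCND2, which encodes cyclin D2, had values of 121, 85.2, 103 and 72.7 in combination tumours, against 46.7, 52.5, 36.5 and 50.9 in vehicle tumours, so all combination libraries lay above vehicle (limma log2 1.01, SE 0.32, adjusted p = 0.505). E2F2, an activator of S-phase genes, had 157, 149.6, 93.9 and 109.8 in combination tumours, against 244, 181, 199.5 and 189 in vehicle tumours and was lower without overlap (limma log2 -0.69, SE 0.24, adjusted p = 0.528). The G1 kinase gene CDK4 stood at -0.54 (SE 0.20) and CCND3, which encodes cyclin D3, at -0.53 (SE 0.21). Over the 22 G1 cyclins and CDK inhibitors the median was -0.10, with 1 higher and 4 lower at an unadjusted p under 0.05. None of 19 p53 target genes reached that level (median 0.0052).

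**Figure D3:**
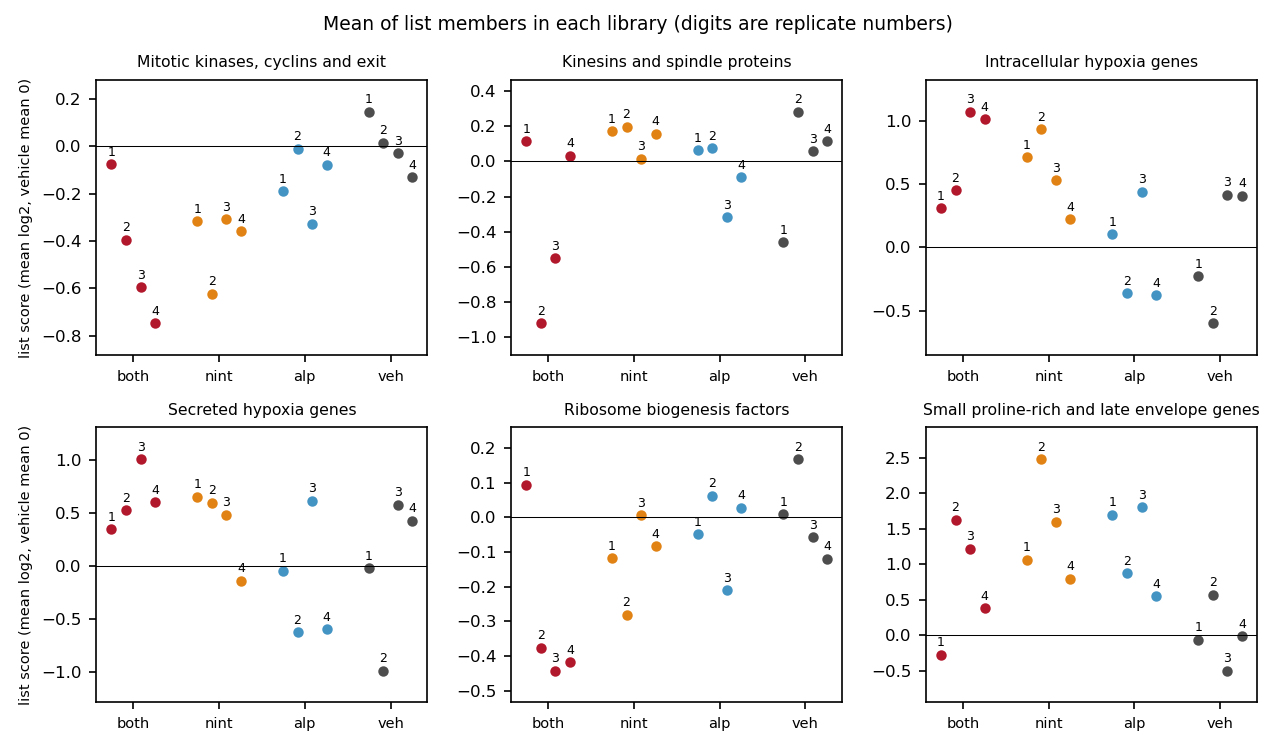
Score of 6 gene lists (y axis, mean log2(value + 1) of members with the vehicle mean at 0) in each library of tumours given both drugs (both), nintedanib (nint), alpelisib (alp) or vehicle (veh), with replicate numbers beside the points. Combination 1 has the highest combination score for mitotic kinases and ribosome biogenesis and the lowest for envelope genes, and vehicle 2 has the lowest vehicle score for both hypoxia lists.

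Hypoxia-responsive genes were higher with both drugs. All 20 intracellular hypoxia genes lay above 0 (median 0.66) and 10 had an unadjusted p under 0.05, against 4.47% of all genes. Secreted hypoxia genes were above 0 in 16 of 16 (median 0.63), 6 of them at that level and 4 with separated groups, as in 1.79% of all genes. IGFBP3, a secreted binder of insulin-like growth factors, had values of 2414, 3974, 3767 and 2613 in combination tumours, against 1385, 1086, 1778 and 1864 in vehicle tumours (limma log2 1.06, SE 0.27, adjusted p = 0.421). WSB1, a ubiquitin ligase subunit, had 676, 608, 1180.5 and 2017 in combination tumours, against 425, 449, 649 and 648 in vehicle tumours (limma log2 0.90, SE 0.27, adjusted p = 0.505), and ANKRD37 had 279, 279, 488 and 333 in combination tumours, against 118, 131, 144 and 314 in vehicle tumours (limma log2 1.04, SE 0.34, adjusted p = 0.505). IGFBP3 was clear of vehicle in every combination library, while WSB1 and ANKRD37 overlapped.

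The difference was smaller without vehicle 2, which had the lowest hypoxia scores of all libraries. The intracellular score was 0.31, 0.45, 1.08 and 1.02 in combination tumours, against -0.23, -0.60, 0.42 and 0.41 in vehicle tumours. Without vehicle 2 the medians were 0.46 and 0.26 for intracellular and secreted genes, and 6 and 3 genes had an unadjusted p under 0.05, as did 4.09% of all genes in that direction. Over the 16 libraries 14 of the 20 intracellular genes had a correlation above 0.7 with the mouse gene of the same symbol, as did 1067 of 13429 genes with such a partner; the points of each pair share their libraries. The sum of host endothelial markers differed between the groups: the 5 mouse markers summed to 787 to 1307 in combination tumours and 1420 to 2072 in vehicle tumours, without overlap. Taken singly, Cdh5 and Emcn were separated, while Pecam1, Vwf and Tek overlapped. The part of host endothelial cells in the hypoxia values was not tested.

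Carbohydrate and mitochondrial energy genes differed in opposite directions. Of 24 glycolysis and lactate genes 21 were above 0 (median 0.17) and 5 had an unadjusted p under 0.05. The neuronal-type enolase gene ENO2 had values of 817, 1793, 2593 and 1737 in combination tumours, against 1081, 221, 1203 and 1240.1 in vehicle tumours (limma log2 1.05, SE 0.46, adjusted p = 0.603), with vehicle 2 far below the rest. PGK1, which makes ATP in glycolysis, stood at 0.53 (SE 0.20) and PDK1, the kinase that shuts pyruvate out of mitochondria, at 0.69 (SE 0.30). Without vehicle 2 the glycolysis median was -0.0086 with 0 members higher and 1 lower at that level.

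Respiratory genes lay mostly below 0. Of 18 tricarboxylic acid cycle genes 15 were below 0 (median -0.20, 3 at an unadjusted p under 0.05), and CS, citrate synthase, had values of 1241, 1265, 1069 and 929.5 in combination tumours, against 1738, 2078, 1327 and 1440.2 in vehicle tumours without overlap (limma log2 -0.54, SE 0.17, adjusted p = 0.505). Of 38 complex I subunits 29 were below 0 (median -0.16), with NDUFB10 at -0.49 (SE 0.18), while NDUFB5 stood above 0 at 0.38 (SE 0.17). Complex III and IV had 13 of 19 subunits below 0 (median -0.28, 5 at that level), among them UQCRC1 at -0.73 and COX8A at -0.45. ATP synthase had 12 of 15 below 0 (median -0.22) and the mitochondrial ribosome 47 of 75 (median -0.12). These counts shrank without combination 4, to 0 low subunits in complexes III and IV and 1 low gene of the mitochondrial ribosome, where 2.68% of all genes were low. They grew without combination 1, to 8 and 15, where 5.87% of all genes were low, against 3.69% with all libraries. With nintedanib alone the medians relative to vehicle were -0.30 for complex I and -0.37 for complexes III and IV. They were -0.36 for ATP synthase and -0.27 for the mitochondrial ribosome, each further below 0 than with both drugs. The tricarboxylic acid cycle median was -0.15 with nintedanib. With alpelisib alone all of these medians lay close to 0, at -0.049 to -0.0093.

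Genes that build ribosomes and genes that make up ribosomes differed. Of 30 ribosome biogenesis factors 28 lay below 0 (median -0.29) and 4 had an unadjusted p under 0.05. NOP14, a factor of small-subunit assembly, had values of 781, 724, 581 and 426 in combination tumours, against 998, 869, 999 and 881 in vehicle tumours without overlap (limma log2 -0.61, SE 0.17, adjusted p = 0.505). For nucleolin, NCL, the values were 12972, 6608, 5888 and 6629.8 in combination tumours, against 10359, 10946, 11279 and 9741 in vehicle tumours (limma log2 -0.47, SE 0.21, adjusted p = 0.61), with combination 1 above the vehicle range and the other 3 below it. RRS1, a large-subunit assembly factor, stood at -0.58 (SE 0.22). The list score was 0.094, -0.38, -0.44 and -0.42 in combination tumours, against 0.0086, 0.17, -0.057 and -0.12 in vehicle tumours. Without combination 1 there were 11 low biogenesis factors, where 5.87% of all genes were low, against 3.69% with all libraries.

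Cytosolic ribosomal protein genes were near 0 as a list, with 46 of 80 above 0 (median 0.074) and 9 higher at an unadjusted p under 0.05. Their median was -0.011 without combination 3. RPS7 had values of 17519.5, 15902, 31574 and 16134 in combination tumours, against 8726, 19842, 8286 and 11302 in vehicle tumours (limma log2 0.78, SE 0.29, adjusted p = 0.546), with combination 3 well above the rest, and RPS3A stood at 0.81 (SE 0.30). Processed copies of ribosomal protein genes are common, so single values are uncertain. Of 38 proteasome subunits 28 were below 0 (median -0.17), 4 of them at that level, against 3.69% of all genes. Of 15 heat shock genes 12 were below 0 (median -0.33), with HSPH1, a nucleotide exchange factor of HSP70, at -0.52 (SE 0.21) and HSPA4 at -0.44 (SE 0.19).

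Lipid and redox genes lay mostly below 0, and few passed the unadjusted threshold. Of 24 cholesterol synthesis genes 17 lay below 0 (median -0.19), 2 of them at an unadjusted p under 0.05, against 3.69% of all genes. FADS1, a fatty acid desaturase gene, stood at -0.46 (SE 0.15) and FASN, fatty acid synthase, at -0.40 (SE 0.18); 10 of 12 fatty acid genes were below 0 (median -0.26), 2 at that level. Among 22 NRF2 targets 15 were below 0 (median -0.13) and 2 lower at that level, led by the quinone reductase NQO1 at -0.56 (SE 0.19) and the pentose phosphate enzyme TKT at -0.48 (SE 0.16). MT1H, a metallothionein gene with near-identical relatives, had values of 92.2, 50.9, 121 and 64.7 in combination tumours, against 41.0, 24.6, 45.0 and 31.7 in vehicle tumours (limma log2 1.15, SE 0.36, adjusted p = 0.505) and was the only one of 8 metallothioneins with an unadjusted p under 0.05.

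**Figure D4:**
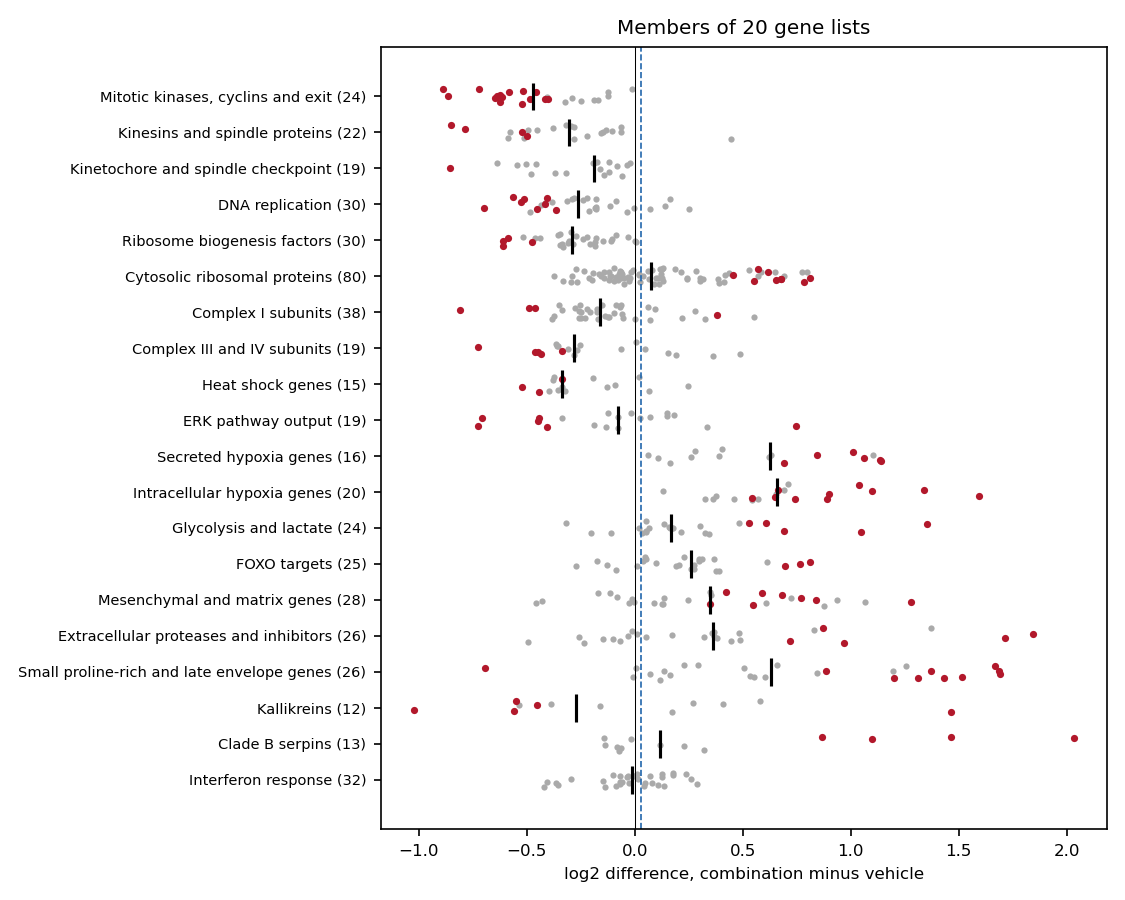
Log2 difference (x axis, combination minus vehicle) of each tested member of 20 gene lists (rows, number of members in brackets), with members of unadjusted p under 0.05 in red, the list median as a black bar and the median of all genes, 0.031, as a dashed blue line. Mitotic, replication and ribosome biogenesis members lie mostly left of 0, and all members of both hypoxia lists lie right of it.

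Among squamous differentiation genes, most small proline-rich and late envelope genes lay above 0, and 0 passed an adjusted p of 0.05 in limma. Of 26 small proline-rich and late envelope genes 24 lay above 0 (median 0.63), and 9 were higher and 1 lower at an unadjusted p under 0.05, against 4.47% and 3.69% of all genes. LCE1B, a late cornified envelope gene, had values of 41.9, 227, 299 and 93.6 in combination tumours, against 34.3, 45.8, 28.0 and 55.4 in vehicle tumours (limma log2 1.67, SE 0.55, adjusted p = 0.505). LCE1C stood at 1.52 (SE 0.51) and LCE2C at 1.69 (SE 0.56); members of this cluster are alike in sequence, so reads may be split between them. The list score was -0.27, 1.63, 1.22 and 0.39 in combination tumours, against -0.062, 0.57, -0.50 and -0.011 in vehicle tumours, with combination 1 below the vehicle mean. Without combination 1, 13 members were higher at that level, in a repeat where 5.89% of all genes were higher.

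Other differentiation genes had no common direction. Of 27 cornification genes 17 were above 0 (median 0.18, -0.031 without combination 2), with cystatin A, CSTA, at 0.87 (SE 0.31) and the calmodulin-like CALML3 at -0.49 (SE 0.22). Relative to vehicle the cornification median was 0.58 with nintedanib alone and 0.48 with alpelisib alone, with 19 and 25 of 27 above 0. Keratin genes split: KRT23 stood at 1.08 (SE 0.37), KRT80 at 0.73 (SE 0.26) and KRT1, the first suprabasal keratin, at -0.79 (SE 0.37). None of the 8 basal and stress keratins, 12 desmosome genes or 13 hemidesmosome genes had an unadjusted p under 0.05. Clade B serpins, intracellular protease inhibitors, had 4 of 13 higher at that level, against 4.47% of all genes. Relative to vehicle the serpin median was 0.12 with both drugs, 0.64 with nintedanib alone and 0.30 with alpelisib alone. SERPINB10 had values of 23.0, 18.3, 17.5 and 55.2 in combination tumours, against 3.81, 3.35, 5.09 and 12.4 in vehicle tumours without overlap (limma log2 2.03, SE 0.50, adjusted p = 0.396), and SERPINB7 stood at 0.87 (SE 0.34). The iron-binding antimicrobial protein gene LCN2 had 157, 718, 340.5 and 282 in combination tumours, against 200.1, 104, 150.3 and 74.6 in vehicle tumours (limma log2 1.38, SE 0.38, adjusted p = 0.505), whereas PI3, the elastase inhibitor elafin, stood at -0.90 (SE 0.36). Among 26 lineage regulators 21 were above 0 (median 0.15), with ELF3 at 0.65 and SOX2 and TFAP2C at -0.45 and -0.61.

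Kallikrein-related proteases, which trim the outer layers of squamous epithelium, were lower with both drugs in part of the family. Of 12 genes tested 7 were below 0 (median -0.27). At an unadjusted p under 0.05, 4 were lower and 1 higher, against 3.69% and 4.47% of all genes. KLK10 had values of 727, 882, 779.6 and 546 in combination tumours, against 1238, 1021, 879.5 and 1153 in vehicle tumours (limma log2 -0.56, SE 0.18, adjusted p = 0.505), and KLK8 had 1081, 1016, 797 and 578 in combination tumours, against 1544, 1202, 1016 and 1240.1 in vehicle tumours (limma log2 -0.55, SE 0.19, adjusted p = 0.526). Both overlapped vehicle. With each drug alone the family median lay above vehicle, at 0.31 for nintedanib, with 7 of 12 members above 0, and 0.60 for alpelisib, with 10 of 12.

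Matrix and mesenchymal genes tended to be higher. Of 28 such genes 20 were above 0 (median 0.35), where 53.5% of all genes were. An unadjusted p under 0.05 was found in 8 and no overlap in 4, against 4.47% and 1.79% of all genes in that direction. Relative to vehicle the list median was 0.26 with nintedanib alone, with 25 of 28 above 0, and -0.042 with alpelisib alone. TNC, the matrix glycoprotein tenascin-C, had values of 713, 713, 835 and 876 in combination tumours, against 552, 476, 584 and 469 in vehicle tumours (limma log2 0.59, SE 0.18, adjusted p = 0.505). The repressor of epithelial genes ZEB2 had 428, 409, 568 and 421 in combination tumours, against 309.6, 268, 268 and 281 in vehicle tumours (limma log2 0.68, SE 0.25, adjusted p = 0.528), with combination 3 the highest. Collagen VII, COL7A1, which anchors epithelium to the dermis, stood at 0.55 (SE 0.22) and COL12A1 at 0.43 (SE 0.17). Correlation above 0.7 with the mouse gene was found in 0 of the 28 members. Of 6 fibroblast markers in the human table the summed values were 45055 to 59035 in combination tumours and 46461 to 68878 in vehicle tumours, nearly all of it from COL1A1, at 44437 to 58724 in combination tumours and 46274 to 68467 in vehicle tumours. Decorin, DCN, a fibroblast proteoglycan singled out after its values were seen, had values of 77.5, 256, 84.3 and 223 in combination tumours, against 32.4, 78.2, 43.3 and 29.4 in vehicle tumours. DESeq2 called it higher without combination 1 (log2 2.04, adjusted p = 0.00948). With all libraries DCN overlapped vehicle, since combination 1, at 77.5, lay below vehicle 2, at 78.2. The other fibroblast markers, PDGFRA, PDGFRB, LUM, COL1A1 and COL3A1, overlapped vehicle as well. LUM, for example, had 102, 129, 58.9 and 218 in combination tumours, against 83.8, 163, 64.5 and 73.5 in vehicle tumours. Mouse Dcn was far higher than human DCN. It stood at 2805, 4394, 4979 and 4631 in combination tumours, against 2154, 1875, 4174 and 2529 in vehicle tumours, with overlap. Whether mouse reads entered the human DCN values was not tested. The part of fibroblasts in the matrix genes was not tested. Among 26 proteases and inhibitors of the matrix 18 were above 0 (median 0.36, 5 at that level), with matrilysin, MMP7, at 23.0, 51.7, 74.8 and 43.1 in combination tumours, against 39.1, 5.59, 14.4 and 7.91 in vehicle tumours (limma log2 1.72, SE 0.50, adjusted p = 0.505) and MMP10 at 0.87 (SE 0.32).

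Genes downstream of the blocked kinases showed small and mixed differences. Of 25 FOXO targets 21 lay above 0 (median 0.26), and 3 had an unadjusted p under 0.05, including CCNG2, an atypical cyclin that slows the cycle (105, 103, 197 and 218 in combination tumours, against 46.7, 72.6, 116 and 138 in vehicle tumours; limma log2 0.77, SE 0.33, adjusted p = 0.602). The glucose uptake inhibitor TXNIP stood at 0.38 (SE 0.19). Relative to vehicle the FOXO target median was 0.35 with nintedanib alone, with 24 of 25 above 0, and 0.15 with alpelisib alone, with 19 of 25. For combination minus nintedanib the FOXO target median was -0.083. Among 19 genes of ERK pathway output 12 were below 0 (median -0.076). At an unadjusted p under 0.05, 5 were lower and 1 higher, against 3.69% and 4.47% of all genes. ETV5, an ETS factor induced by FGF signalling, had values of 123, 89.9, 85.9 and 76.8 in combination tumours, against 163, 107, 203 and 155 in vehicle tumours (limma log2 -0.72, SE 0.25, adjusted p = 0.528). DUSP5, a nuclear ERK phosphatase, had 1149, 1208, 1169 and 716 in combination tumours, against 1646, 1218, 1657 and 1216 in vehicle tumours without overlap (limma log2 -0.45, SE 0.19, adjusted p = 0.576). SPRY1, a feedback inhibitor of receptor kinases, lay the other way, at 73.3, 91.5, 90.7 and 64.0 in combination tumours, against 36.2, 40.2, 55.2 and 58.8 in vehicle tumours (limma log2 0.75, SE 0.29, adjusted p = 0.556). Of 26 AP-1 and immediate early genes 17 were above 0 (median 0.36), with 1 higher and 1 lower at an unadjusted p under 0.05. Without vehicle 2 their median was 0.15, with 1 higher and 3 lower. DUSP1, a stress-induced phosphatase, had 167, 178, 298 and 182 in combination tumours, against 95.3, 74.9, 157 and 146 in vehicle tumours (limma log2 0.82, SE 0.29, adjusted p = 0.528).

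The kinases that the drugs bind were present at low to moderate levels in the tumour cells. FGFR4 had values of 9.42, 8.76, 6.36 and 9.43 in combination tumours, against 29.5, 17.9, 23.8 and 19.2 in vehicle tumours, lower with both drugs and without overlap (limma log2 -1.30, SE 0.44, adjusted p = 0.508), and stood at -1.51 with nintedanib alone and -0.17 with alpelisib alone. FGFR3 averaged 585 ± 202 in combination tumours and 605 ± 100.3 in vehicle tumours, FGFR2 231 ± 46.3 and 234 ± 46.5, and PIK3CA, the target of alpelisib, 87.4 ± 69.5 and 59.7 ± 13.7 (SD, n = 4 each). FGFR1 averaged 8.89 ± 2.79 and 9.04 ± 5.80, PDGFRB 23.5 ± 9.36 and 22.2 ± 9.21, and KDR 1.35 ± 1.36 and 2.18 ± 2.10 in the same order. Over 24 components of the PI3K, AKT and mTOR pathway the median was 0.046 (-0.017 with libraries scaled to the sum of human and mouse reads), and 0 had an unadjusted p under 0.05.

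Immune-related genes of the tumour cells showed no common shift. Of 32 interferon response genes 15 lay above 0 and 17 below (median -0.013), with 0 at an unadjusted p under 0.05. Of 19 genes for HLA class I and peptide loading 14 were below 0 (median -0.15), with the peptide editor TAPBPL at -0.80 (SE 0.26) and the light chain B2M at 0.72 (SE 0.33). The calgranulin S100A12 stood at 1.16 (SE 0.48) and psoriasin, S100A7, at 0.75 (SE 0.35), 2 of 17 S100 genes at that level, where 4.47% of all genes were higher. Among 25 NF-kB cytokines and chemokines 15 were above 0 (median 0.13), with 0 at that level, and likewise 0 of 16 BCL2-family genes.

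Because combination 1 was rich in host muscle, the DESeq2 test was repeated without it, a choice made after seeing the data. It then called 207 genes, 106 higher (0.6%) and 101 lower (0.572%), the original 13 included. Lower genes included 7 of the 24 mitotic kinases and exit genes, 4 of 22 kinesins and 4 of 30 ribosome biogenesis factors. KIF20A, a kinesin of cytokinesis (log2 -1.08, adjusted p = 0.00237), AURKA, the Aurora A kinase (log2 -0.82, adjusted p = 0.00746), NCL (log2 -0.73, adjusted p = 0.00391) and EIF5B, a factor that joins the ribosomal subunits (log2 -0.82, adjusted p = 0.0127), were among them, as was PTGES, a prostaglandin E synthase (log2 -2.15, adjusted p = 2.12e-04). Higher genes included LCN2 (log2 1.75, adjusted p = 0.00391), KRT80 (log2 1.04, adjusted p = 0.0127), WSB1 (log2 1.22, adjusted p = 0.0162) and 4 of 26 small proline-rich and late envelope genes. Limma without combination 1 still gave 0 genes. Nintedanib 4, which held more host muscle than combination 1, stayed in the DESeq2 repeat. Leaving out combination 2 instead, the library with the least host muscle, gave 89 DESeq2 calls. Whether muscle accounts for the distance of combination 1 from the other 3 was not tested.

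Against nintedanib alone, the combination gave 0 genes at an adjusted p under 0.05 in limma (0%), with 1638 at an unadjusted p under 0.05 (9.27%), 712 higher (4.03%) and 926 lower (5.24%). Several genes that were high with both drugs were closer to vehicle with nintedanib. TPT1-AS1 had 27.0, 51.7, 34.4 and 21.9 with nintedanib (combination minus nintedanib, log2 1.78, adjusted p = 0.332), PPFIA4 had 58.3, 142, 27.7 and 80.8 (log2 1.28, adjusted p = 0.376) and TAGLN had 110.5, 51.7, 91.6 and 85.8 (log2 0.81, adjusted p = 0.409). TNC and COL7A1 differed from nintedanib by 0.52 and 0.71 (adjusted p = 0.39 and 0.376). Over all 28 mesenchymal and matrix genes, however, the median difference from nintedanib was 0.019. At an unadjusted p under 0.05 in limma, 3 of them were higher and 2 lower, where 4.03% and 5.24% of all genes were. Kinesins and spindle genes stood at a median of -0.31 with both drugs and 0.13 with nintedanib, relative to the same vehicle libraries, and 9 of 22 were lower with both drugs than with nintedanib at an unadjusted p under 0.05. Nintedanib 4 held the most host muscle of all libraries, with the 7 mouse markers at 145173, against 83825 in combination 1. Without both libraries 12 of 22 kinesins were lower with both drugs than with nintedanib, where 5.21% of all genes were. CENPE was the clearest of the kinetochore genes (log2 -1.53, adjusted p = 0.343). Without combination 4, limma gave 123 genes between the combination and nintedanib, 114 of them lower.

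Late envelope genes also had a lower median with both drugs than with nintedanib. Relative to vehicle their median was 0.63 with both drugs, 1.60 with nintedanib and 1.24 with alpelisib. At an unadjusted p under 0.05, 9 of 26 were lower with both drugs than with nintedanib and 2 lower than with alpelisib, where 5.24% and 3.74% of all genes were. Without nintedanib 4 and combination 1 the envelope count against nintedanib was 7, where 5.21% of all genes were lower. SPINK5, the inhibitor of epidermal kallikreins, had 1604, 2343, 1593 and 2963 with both drugs, against 2658, 5107, 2862 and 4747 with nintedanib (log2 -0.84, adjusted p = 0.376).

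Against alpelisib alone, 1 gene passed an adjusted p of 0.05 in limma (0.00566%), and 1492 had an unadjusted p under 0.05 (8.45%), 832 higher (4.71%) and 660 lower (3.74%). The gene was KLK10, with 727, 882, 779.6 and 546 in combination tumours, against 1647, 1789.5, 1462 and 1517 in alpelisib tumours (log2 -1.14, adjusted p = 0.0486). Its groups did not overlap, yet the call was lost in 13 of 16 repeats that left out 1 library, all but those without combination 2, nintedanib 1 or nintedanib 4. KLK9 stood at log2 -1.17 (adjusted p = 0.191) and KLK8 at -0.66 (adjusted p = 0.487) against alpelisib, and 7 of 12 kallikreins were lower at an unadjusted p under 0.05. Hypoxia genes went the other way, with 13 of 20 intracellular and 6 of 16 secreted genes higher than with alpelisib at that level. Relative to vehicle the intracellular list stood at 0.66 with both drugs, 0.69 with nintedanib and -0.021 with alpelisib. SOX2, a squamous lineage factor, had 600.0, 666, 433 and 763 with both drugs, against 1064, 1049, 1044 and 923 with alpelisib (log2 -0.76, adjusted p = 0.39).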

How the data were processed

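Polyadenylated RNA of xenografts was sequenced from its 3′ ends as 16 libraries, and reads were assigned to human and mouse genomes with TopHat, hg19 and mm10, per the submitters' processing notes. The counter, the annotation, the strand setting and the scaling were not given in the sources used here. The deposited tables hold a normalized signal per gene and library that the authors made; every value was a whole multiple of 1 step per library (tolerance 0.01 read), so it was whole reads divided by 1 size factor, and reads were recovered for the count tests. Depth gives counting error only.

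Genes reaching 1 in at least 4 libraries were fitted as log2(value + 1) with limma 3.58.1 (trend, 1 mean for each of 4 groups, all 16 libraries, R 4.3.3) and adjusted by Benjamini-Hochberg at 0.05. EdgeR 4.0.16, DESeq2 1.42.0 and limma-voom were run on recovered reads. The pipeline was checked on simulated data.

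Alternatives were quantile normalization, no trend, no filter, a minimum of 10, a pseudocount of 0.1, only the groups compared, scaling to the human plus mouse total, leaving out muscle-rich libraries, genes that follow the mouse gene, or each library, and replicate number as a block. Leaving out libraries under DESeq2 was added after seeing the data. Members and gene lists were chosen with earlier results of these data known. Named genes were those called by DESeq2, the 12 higher and 12 lower with the smallest p, at least median expression and separated groups, up to 4 members per list, and drug targets; a few genes that this rule names are not reported here. AURKA and PTGES were named after their values were seen. A search of promoters was not run, since no sequence of the files' build was used here.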

Additional observations from a re-analysis of the deposited data

Results flagged for a closer look

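In 13 of 204 groups of 4 libraries (102 genes, combination and vehicle) the highest or lowest library stood apart from the other 3 by more than Dixon's 95% critical value, which chance exceeds in about 1 in 20 groups. Combination 1 was the high library for CDCA8 (902.68, next 528.55), KIF4A (249.23, next 154.92) and NCL (12971.5, next 6629.79). Combination 3 was high for CNN3 (851.15, next 632.82), DUSP1 (297.5, next 181.86), RPS7 (31573.6, next 17519.5) and ZEB2 (567.96, next 428.3). Combination 4 was high for SERPINB10 (55.23, next 23.04) and low for DUSP5 (715.99, next 1148.77). Among vehicle libraries, vehicle 1 was high for CCND3 (834.56, next 471.16) and CCNF (859.33, next 658.78), vehicle 4 was high for ANKRD37 (314.27, next 144.32), and vehicle 2 was low for ENO2 (221.24, next 1081.31). In the mouse table, which this comparison does not use, skeletal muscle markers summed to 83825.1 in combination 1, above the highest vehicle library at 22102.4.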

How the results depend on the processing

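Genes called between combination and vehicle numbered 0 in every limma, limma-voom and edgeR setting, 13 with DESeq2, 0 in each limma repeat that left out 1 library, and in DESeq2 207, 89, 3 and 2 without combinations 1 to 4 in turn and 5, 11, 2 and 22 without vehicles 1 to 4. Between combination and nintedanib there were 0 calls as reported, 2 without the trend, 1 with no filter, 4 with DESeq2, and 0 to 123 with 1 library left out. Between combination and alpelisib the 1 call became 0 with quantile normalization, no filter, a minimum of 10, a pseudocount of 0.1, only the 2 groups compared, edgeR or limma-voom, 19 with DESeq2, 14 without the muscle-rich libraries, and 0 to 1 with 1 library left out. With replicate number as a block, calls were 0, 0 and 0 in these comparisons; deviations of same-numbered combination and vehicle libraries had correlations of -0.054, -0.219, -0.009 and 0.036, so the numbers were not treated as pairs. Over 102 genes and 29 alternatives, 2938 of 2951 log2 differences kept their direction and their side of the threshold, 13 passed it under DESeq2 and 0 turned round. Most of these genes were named for a small p, separated groups or a DESeq2 call in this same comparison. Their kept direction is therefore no independent support. Since 0 genes passed in the main limma fit, a gene kept its side unless another setting called it. Of 1456 list medians under other settings, 4 moved by more than the spread of library scores. That limit is wide, and medians near 0 changed sign within it. The sign changed in 8 settings for p53 targets, 7 for interferon response genes and 6 for desmosome genes. The cause of these differences was not tested.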
